A study of Mus musculus with 2 samples.

Results

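Classical monocytes of the mouse bone marrow carry Ly6C and the chemokine receptor CCR2, and in these data they were taken as the cells with transcripts of at least 3 of 5 genes: Ccr2, F13a1, Fn1, Ms4a4c and Ly6c2. A gene counted at 1 UMI or more, where a UMI (unique molecular identifier) stands for 1 captured RNA molecule. The cells also had no UMI of Ace, Treml4 or Siglech, fewer than 5 of H2-Aa and H2-Ab1 together, fewer than 3 of C1qa, C1qb and C1qc together, and fewer than 5 of Elane. These limits are aimed at patrolling monocytes, plasmacytoid dendritic cells, antigen-presenting cells, resident macrophages and granulocyte precursors. Cells with markers of some of these classes remained, as given below. The members were chosen by measured transcripts, so the levels of those genes are given as a description only. 1847 cells met the rule, out of 29952 cells that passed the filter (200 genes or more, mitochondrial UMIs no higher than 25%).

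The marrow came from male wild-type mice of the strain labelled C57B/6, described only as young when their diets began. For 16 weeks their food was normal chow (ND) or a high-fat diet of 60% fat (HFD), and each diet was profiled as 1 whole-transcriptome library on the BD Rhapsody microwell platform, with 5 antibody tags read in the same cells. How many animals went into a library, and whether cells were sorted or enriched, is not in the labels. With 1 library per diet no test of the diet is possible: every difference below is between these 2 libraries, diet and preparation cannot be told apart, and all intervals are 95% intervals for counting error only.

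Classical monocytes arise in the marrow from proliferating monocyte progenitors. As they mature they lose stem cell and primary granule transcripts such as Cd34, Flt3 and Mpo, gain Fn1, S100a4 and lysozyme, and leave for the blood through the receptor encoded by Ccr2. They can mature into patrolling monocytes or enter inflamed tissue, among them adipose tissue, where they give rise to macrophages. A neutrophil-like and a dendritic cell-like form of these monocytes have been described, the first with neutrophil granule transcripts and the second with Cd209a and MHC class II genes.

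The ND library held 868 members and the HFD library 979. They were 6.07% of 14302 kept ND cells (Clopper-Pearson interval 5.68 to 6.47%) and 6.26% of 15650 kept HFD cells (5.88 to 6.65%). The ratio of the shares was 1.03, with an interval of 0.94 to 1.13 that includes 1. Patrolling monocytes, taken as cells with at least 2 UMIs of Ace and Treml4, at least 1 of Csf1r, none of Siglech and under 3 of the C1q genes, were 3.03% and 6.66% of kept cells, a ratio of 2.20 (1.97 to 2.47). The share of cells meeting the rule was thus alike within counting error in libraries where the share of patrolling monocytes was not. The limits of the rule left out 796 ND and 966 HFD cells with at least 3 rule genes. Of these, the limit on Elane alone left out 420 ND and 484 HFD cells, and that on H2-Aa and H2-Ab1 alone 129 and 146. The limit on Siglech alone left out 106 and 109, that on Ace and Treml4 alone 36 and 90, and that on the C1q genes alone 19 and 14. The part of these limits in the ratio was not tested.

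Depth was alike in the members of both libraries. Their median was 8331 UMIs per cell in ND and 8368 in HFD, with 2870 and 2898 genes, and mitochondrial UMIs made up a median 6.67% and 6.21%. Summed over members, the ND library gave 8880676 UMIs and the HFD library 10005496. 329 cell indices occurred in both libraries, none of them belonging to members in both, while 21 ND and 15 HFD members had an index that the other library also held. Scrublet, a doublet caller, marked 33 ND and 45 HFD members, which were kept.

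Genes outside the rule were checked against the name. All 33 other classical monocyte genes on the list reached at least 10 CPM (UMIs scaled to a fixed total per cell group) in both libraries, and they summed to 31277 CPM in ND and 34095 CPM in HFD members, against 10777 and 13532 CPM in all other kept cells. In other kept cells 31 of the 33 also reached 10 CPM in both libraries, and in patrolling monocytes 32, so that count does not set the members apart. Patrolling monocytes held a higher sum of these genes, at 42785 and 39255 CPM, and members with all 5 rule genes held 48844 and 47673 CPM. The genes with the highest fold over other kept cells included S100a4, a calcium-binding protein of motile cells, at 554 against 41.1 CPM, and Vcan, a matrix proteoglycan of monocytes, at 67 against 1.26 CPM. Msr1, a scavenger receptor, stood at 74.7 against 2.65 CPM, and Ms4a6c at 1653 against 246 CPM. In patrolling monocytes S100a4 stood at 238 CPM in ND and 346 CPM in HFD, and Ms4a6c at 1098 and 937 CPM. Vcan stood there at 1.15 and 6.09 CPM, and Msr1 at 24.6 and 21.8 CPM. A UMI of Csf1r, the receptor for the monocyte growth factor M-CSF, was found in 88.8% of ND and 86.8% of HFD members, and in 3.18% and 4.17% of B cells (at least 3 UMIs of Cd79a and Cd79b, none of the rule genes), whose median depth was 2416 and 2371 UMIs. S100a4 was in 81.5% and 83.6% of members and in 0.497% and 0.802% of B cells.

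The members were not 1 kind of cell. The number of rule genes in a cell ordered them: 489 ND and 571 HFD members had all 5, 180 and 222 had 4, and 199 and 186 had 3. A further 615 ND and 586 HFD cells had 2 rule genes and no exclusion, and lay just outside. Cells with 3 rule genes were not the shallow ones, since their median was 12083 UMIs in ND and 9538 in HFD, against 6929 and 7794 in cells with all 5.

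From 3 to 5 rule genes the share of cells with a UMI rose for monocyte genes named here and fell for progenitor genes. Lyz2, which encodes lysozyme, was found in 56.8% of ND and 66.1% of HFD cells with 3 rule genes and in 99.6% of cells with 5 in both libraries. Csf1r went from 65.8% and 54.3% to 98.0% and 96.3%, and S100a4 from 40.2% and 38.2% to 99.0% and 98.9%. Klf4, a transcription factor of monocyte differentiation, went from 42.7% and 37.6% to 88.5% and 89.1%. Cd34, a marker of stem and progenitor cells, went the other way, from 58.3% and 55.4% to 15.1% and 15.9%, and Flt3, a growth factor receptor of progenitors, from 55.8% and 49.5% to 11.9% and 12.6%. Mpo, the myeloperoxidase of primary granules, went from 57.3% and 55.9% to 13.1% and 20.3%. Irf8, a transcription factor of the monocyte lineage, was already in 78.9% and 71.5% of cells with 3 rule genes. With 5 it was in 87.7% and 91.8%, but its level fell from 1284 and 1304 CPM to 668 and 707 CPM. The same gradient appeared in both libraries. Since genes that sit together in a cell are not independent of the genes that chose it, this is a description of who was chosen.

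**Figure D1:**
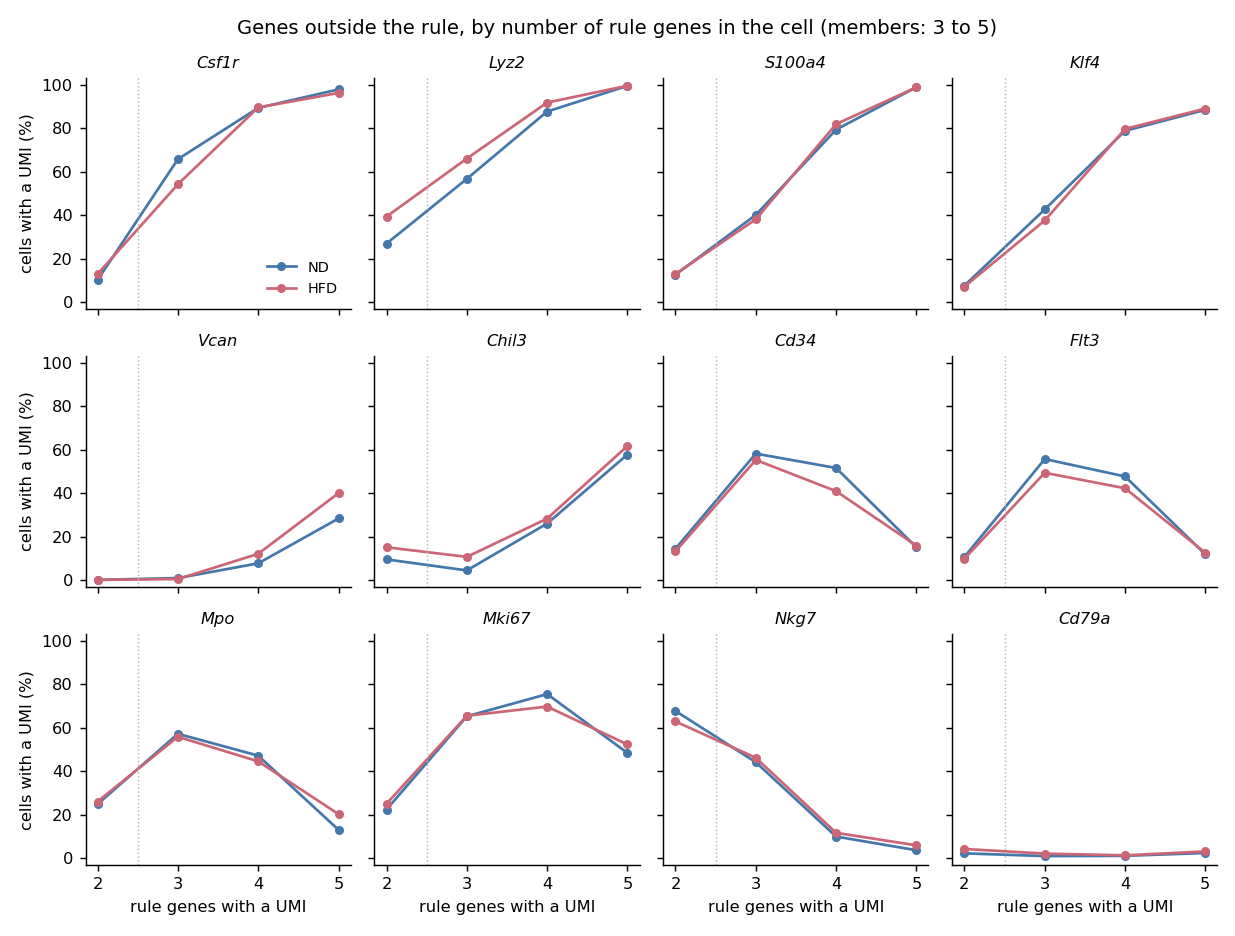
Percent of cells with at least 1 UMI of 12 genes outside the rule (vertical axes), by the number of rule genes in the cell (horizontal axes), in ND (blue) and HFD (red); the dotted line parts members (3 to 5 rule genes) from cells just outside. Csf1r, Lyz2, S100a4 and Klf4 climb to at least 88.5% of cells with 5 rule genes. From 3 to 5 rule genes Cd34, Flt3, Mpo and Nkg7 drop to at most 20.3%. Cd34, Flt3 and Mpo are rarer in cells with 2 rule genes than in those with 3.

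Cells with markers of other lineages also met the rule at its lower edge. Nkg7, a granule gene of NK and cytotoxic T cells, was found in 44.2% of ND and 46.2% of HFD members with 3 rule genes and in 3.68% and 5.95% of those with 5. Ccr2 and Ly6c2 are known in T and NK cells too. 53 ND and 48 HFD members had at least 3 of 11 T or NK cell markers, and 48 and 40 of these had exactly 3 rule genes. Of 10 neutrophil markers, at least 3 were found in 123 ND members (14.2%, 11.9 to 16.7%) and 241 HFD members (24.6%, 21.9 to 27.4%). Counting any of 8 other classes (neutrophil, B cell, T or NK cell, erythroid, basophil or mast, eosinophil, megakaryocyte and plasma cell), 234 ND (27.0%) and 357 HFD members (36.5%) held at least 3 markers of 1 class. That count leaves out dendritic cell and progenitor classes. At least 3 of 9 plasmacytoid dendritic cell markers were found in 20.3% of ND and 20.1% of HFD members, and in 7.77% and 8.76% of those with all 5 rule genes. At least 3 of 10 conventional dendritic cell markers were found in 9.10% and 7.15% of members, and at least 3 of 10 stem and progenitor markers in 8.87% and 7.15%. Whether free RNA, doublets or mixed cells gave these counts was not tested. Results are therefore also given for members with all 5 rule genes and for members without such cells, where they differ.

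The whole marker lists were summed as well. Neutrophil markers summed to 1190 CPM in ND and 1528 CPM in HFD members, with 10 of 10 genes at 10 CPM or more, and to 9420 and 12533 CPM in other kept cells. Basophil or mast markers summed to 746 and 1262 CPM, B cell markers to 431 and 355 CPM, T or NK cell markers to 233 and 208 CPM and erythroid markers to 347 and 277 CPM. Eosinophil markers stood at 228 and 41.4 CPM with Il5ra at 0, plasma cell markers at 185 and 20.2 CPM, and megakaryocyte markers at 8.56 and 27.0 CPM with Gp1bb at 0. Plasmacytoid dendritic cell markers summed to 488 and 425 CPM with Siglech, which the rule excludes, and Klk1 at 0, conventional dendritic cell markers to 201 and 151 CPM, stem and progenitor markers to 341 and 306 CPM, resident macrophage markers to 77.1 and 72.8 CPM with Timd4 at 0, and stromal markers to 73.1 and 62.4 CPM with Col3a1 and Kdr at 0. Of the patrolling monocyte genes not in the rule, Cd300e was at 0 in both libraries. Their part in the results below was not tested beyond the values given with each.

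Most members carried transcripts of dividing cells. At least 3 of 10 cell division genes such as Mki67 and Top2a were found in 53.8% of ND members (50.4 to 57.2%) and 54.5% of HFD members (51.4 to 57.7%), a ratio of 1.01 (0.89 to 1.15). With every cell thinned to 2000 UMIs, which left out 11 ND and 26 HFD members, the shares were 37.5% and 38.3%. The cells with 4 rule genes held the most, at 71.7% and 63.1%, and those with 5 held 44.4% and 49.7%. Neither the S phase list (median log2 HFD/ND −0.01, 30 genes) nor the G2 and M phase list (0.01, 31 genes) had a gene called higher or lower.

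Primary granule transcripts, counted as at least 5 UMIs of Mpo, Prtn3 and Ctsg together, were found in 31.5% of ND members (28.4 to 34.7%) and 31.9% of HFD members (29.0 to 34.9%), a ratio of 1.01 (0.86 to 1.20). Elane, also a primary granule gene, was limited by the rule itself. That limit alone left out 420 ND and 484 HFD cells with at least 3 rule genes, so the shares describe only cells below it. Among members with all 5 rule genes the shares differed, at 14.1% (11.1 to 17.5%) and 20.3% (17.1 to 23.9%), a ratio of 1.44 (1.06 to 1.97). In these cells Mpo stood at a log2 HFD/ND of 0.91 (0.73 to 1.09), whereas over all members it was −0.17 (−0.22 to −0.12). Median depth was 6929 UMIs in these ND cells and 7794 in the HFD ones, and Mpo was also higher in HFD in B cells (0.58) and patrolling monocytes (1.5).

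Cd209a, the C-type lectin that marks the dendritic cell-like form, was found in fewer HFD members. It had a UMI in 122 ND members (14.1%, 11.8 to 16.5%) and 94 HFD members (9.60%, 7.83 to 11.6%), and the ratio of 0.68 had an interval of 0.52 to 0.90. After thinning to 2000 UMIs per cell the shares were 8.40% and 3.88%. Among members with all 5 rule genes they were 14.1% and 8.41%. The lower share was not particular to the members: in all other kept cells it was 3.37% in ND and 2.41% in HFD. In patrolling monocytes it was 1.39% and 1.53%, from 6 ND and 16 HFD cells. In B cells, which lack the gene, 1 of 1006 ND and 0 of 1247 HFD cells had a UMI, the latter allowing a share of up to 0.241%, at median depths of 2416 and 2371 UMIs against 8331 and 8368 in members.

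Antibody tags gave a readout that the rule did not use. The tag for CD16 and CD32, the low-affinity Fc gamma receptors, had a median of 24 molecules per cell in ND members and 18 in HFD members. It was higher in patrolling monocytes (51 and 36) and lower in B cells (17 and 11), and in all 3 cell groups the HFD library was the lower one. It followed the gradient within the members, with medians of 9 and 5.5 molecules in cells with 3 rule genes and 35 and 25 in cells with 5. The share of members above the 95th percentile of B cells of their own library was 10.8% (8.84 to 13.1%) in ND and 13.7% (11.6 to 16.0%) in HFD. The 4 other tags (CD105, CD117, Ly-6A/E and R-phycoerythrin) had medians of 0 or 1 molecule over all members. The tag for CD117, the stem cell factor receptor Kit, ran against the gradient, with medians of 4 and 2 molecules in cells with 3 rule genes and 0 in those with 5 in both libraries. It lay above the 95th percentile of B cells in 35.7% (29.0 to 42.8%) of ND and 31.7% (25.1 to 38.9%) of HFD cells with 3 rule genes, and in 4.50% and 5.78% of those with 5.

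To compare gene expression, UMIs were summed over the members of a library and scaled to their total (CPM), after which HFD was divided by ND and logged (log2 HFD/ND), with a conditional binomial interval that is exact for counts. A gene was called when the ratio was at least 1.5-fold with an interval that left out 0. Of 11364 genes with at least 20 UMIs, 182 were called higher in HFD (1.6%) and 249 lower (2.19%), and the median log2 ratio of all of them was −0.01. Among the 8057 genes with at least 200 UMIs, 56 were called higher and 45 lower. Most genes thus lay close to the diagonal. The 5 rule genes were near it too, as a description: Ccr2 stood at 1588 CPM in ND and 1485 CPM in HFD, F13a1 at 1566 and 1621, Fn1 at 786 and 996, Ms4a4c at 222 and 236, and Ly6c2 at 3095 and 3632. Among members with all 5 rule genes 215 of 10258 genes were called higher and 218 lower. Without cells of other classes it was 173 and 194 of 10589, and after thinning to 2000 UMIs 184 and 158 of 9203. With neither a cycling nor a primary granule profile it was 234 and 227 of 9367. Counts of calls in the gene lists below are to be read beside these counts and shares over all genes.

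**Figure D2:**
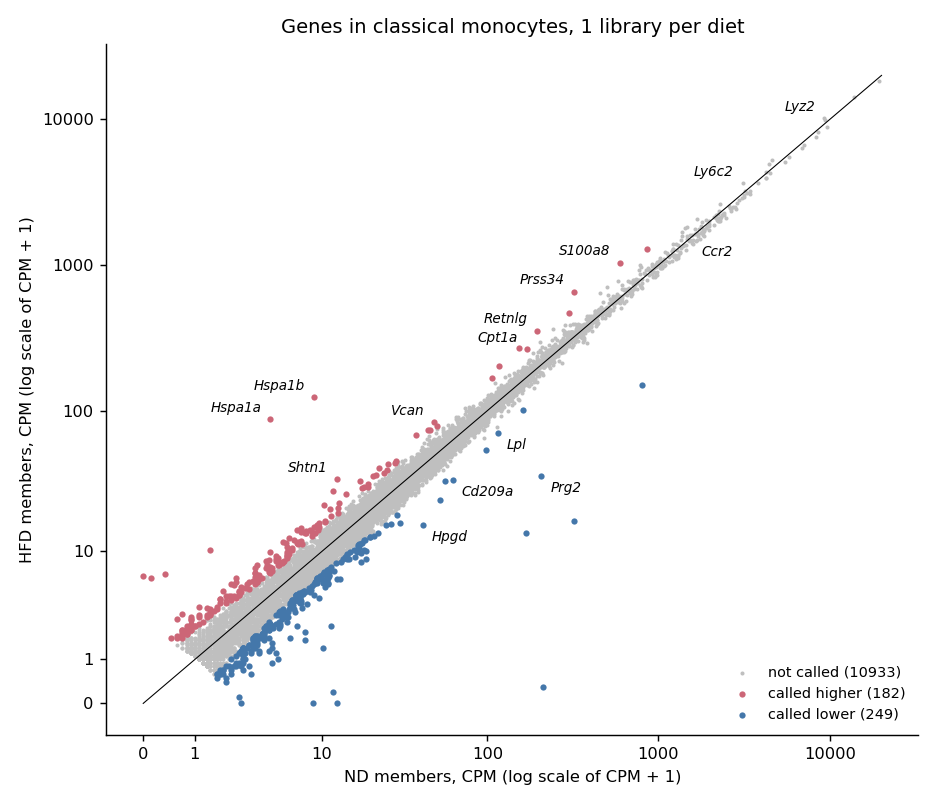
Each point is 1 of 11364 genes, with its level in ND members (horizontal axis) and HFD members (vertical axis) in CPM on a log scale after adding 1; the line marks equal levels, red and blue points are the 182 genes called higher and the 249 called lower. Hspa1a and Hspa1b stand farthest above the line among genes with at least 200 UMIs, and Prg2, with 89.4% of its ND UMIs in 1 cell, is among those below it.

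Among genes with at least 200 UMIs the inducible heat shock protein 70 genes had the highest ratios of HFD over ND. Hspa1a and Hspa1b encode near-identical chaperones that refold damaged proteins, and reads may be split between the 2 copies. Hspa1a had 40 UMIs (4.50 CPM) in ND and 870 UMIs (87.0 CPM) in HFD members, a log2 ratio of 4.27 (3.81 to 4.77). Hspa1b had 79 UMIs (8.90 CPM) and 1238 UMIs (124 CPM), a log2 ratio of 3.80 (3.47 to 4.14). The 2 genes sit side by side on chromosome 17. Their promoters are shown because the pair moved together: the 250 bases before each start (RefSeq, GRCm38.p6, minus strand) differ at 3 positions, and each holds the heat shock element core GAANNTTC once, in capitals, beginning 104 bases before the start. The motif reads the same on both strands, and 6.69% of 32851 promoter windows of this length hold it. The Hspa1a window is chr17:34972157-34972406 and the Hspa1b window chr17:34959239-34959488.
Hspa1a: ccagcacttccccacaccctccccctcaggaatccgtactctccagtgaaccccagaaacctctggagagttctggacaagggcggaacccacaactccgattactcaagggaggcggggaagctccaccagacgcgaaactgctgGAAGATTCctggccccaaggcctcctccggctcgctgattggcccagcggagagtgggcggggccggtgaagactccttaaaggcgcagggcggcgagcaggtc
Hspa1b: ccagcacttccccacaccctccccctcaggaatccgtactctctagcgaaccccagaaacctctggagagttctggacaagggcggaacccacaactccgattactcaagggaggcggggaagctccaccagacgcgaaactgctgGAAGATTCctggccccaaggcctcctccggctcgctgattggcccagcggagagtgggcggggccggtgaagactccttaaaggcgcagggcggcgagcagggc

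The difference lay in more than a few cells, although 71.1% of HFD members had no UMI of the pair. Hspa1a or Hspa1b had a UMI in 48 ND members (5.53%, 4.11 to 7.27%) and 283 HFD members (28.9%, 26.1 to 31.9%), and 64 HFD members but 1 ND member held 10 UMIs or more. After thinning the shares were 1.63% and 15%. It was not particular to the members: the share went from 42.3% to 76.9% in patrolling monocytes and from 0.895% to 7.46% in B cells, and the log2 ratio of Hspa1a was 4.13 in B cells, 3.71 in all other kept cells and 2.23 in patrolling monocytes. Patrolling monocytes held far more of it in both libraries, at 225 CPM in ND and 1054 CPM in HFD. Other heat shock genes differed less. Of 27 chaperone genes tested the pair was called and no other gene, 19 stood above 0, the median was 0.09, and Bag3, a cochaperone of heat shock protein 70, stood at 0.29 (0.03 to 0.54). Cirbp, which encodes a cold-inducible RNA-binding protein, was lower in HFD, at 56.1 and 32.4 CPM (−0.79, −1.0 to −0.59), and about equally so in B cells (−0.81) and patrolling monocytes (−0.91). How long each marrow sample was handled before capture is not in the labels, and its part in these values was not tested.

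**Figure D3:**
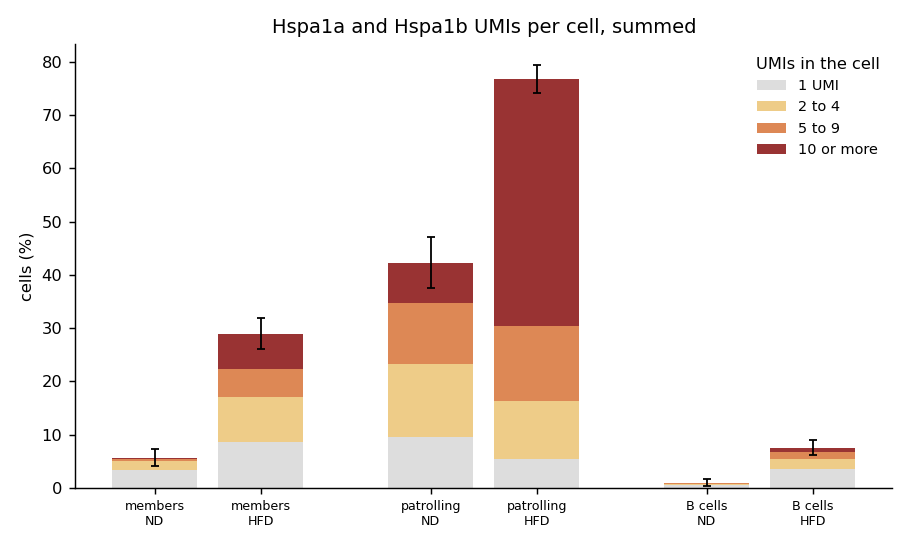
Percent of cells with Hspa1a and Hspa1b UMIs (vertical axis, summed over the pair) in members, patrolling monocytes and B cells of each library; colours give the number of UMIs in the cell, and black bars are exact 95% intervals of the share with any UMI. The HFD bar is the taller one in each of the 3 cell groups, at 28.9% against 5.53% in members.

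Genes of the type I interferon response, the antiviral program that interferons alpha and beta switch on, were higher in HFD as a group. Of 42 genes tested 14 were called higher and none lower, against 1.6% and 2.19% of all genes, 37 had a log2 ratio above 0, and the median was 0.43. Oas1a, which makes the second messenger of RNase L, had 65 and 148 UMIs (7.32 and 14.8 CPM, log2 ratio 1.02, 0.58 to 1.46) and was found in 6.34% of ND and 12.5% of HFD members. Rtp4, an inhibitor of the interferon response, had 51 and 116 UMIs (1.01, 0.53 to 1.52), Oas2 had 16 and 42 UMIs (1.22, 0.36 to 2.15), and Phf11d had 16 and 42 UMIs as well. The other genes called were Isg15, Ifit1, Ifit1bl1, Oas3, Rsad2, Usp18, Ifi27l2a, Ddx58, Zbp1 and Slfn5. Named after their values were seen, Ifi27l2a had 1033 and 2049 UMIs (0.82) and Slfn5 940 and 1677 UMIs (0.66). Irf7, a transcription factor that sustains the response, stood at 0.42.

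Most of these transcripts were scarce, and some lay in few cells. Ifit1 had 55 and 102 UMIs (0.72, 0.23 to 1.22), of which 32.7% in ND and 19.6% in HFD lay in 1 cell. Among members with all 5 rule genes 9 of the 42 genes were called higher and the median was 0.29, and without cells of other classes 10 were called and the median was 0.31. After thinning to 2000 UMIs it was 6 of 38 genes and 0.19. Other cells had the shift too, with a median of 0.37 in B cells, 0.19 in patrolling monocytes and 0.44 in all other kept cells. The neighbouring list of interferon gamma and MHC class I genes had a median of 0.07, with Gbp2, a guanylate-binding protein, called higher (84 and 152 UMIs, 0.68) together with Iigp1 and Cxcl9. Cxcl9, a chemokine for T cells, had 0 UMIs in ND and 65 in HFD, but 55.4% of these came from 1 of the 5 cells that held it.

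The promoters of interferon genes are shown for a comparison with the heat shock pair. The core of the interferon-stimulated response element, GAAANNGAA or its reverse complement, is in 7 of the 9 called interferon genes that have a promoter in the RefSeq table, and in 7.13% of all windows. Neither heat shock promoter holds it, and none of the 9 interferon promoters holds the heat shock core. Oas1a (GRCm38.p6, minus strand, chr5:120907526-120907775) has 2 overlapping copies, the last beginning 14 bases before the start, and Ifit1 (plus strand, chr19:34640639-34640888) has 3, the first of them 109 bases before the start. Capitals mark the motif, and a match describes letters, not a bound site.
Oas1a: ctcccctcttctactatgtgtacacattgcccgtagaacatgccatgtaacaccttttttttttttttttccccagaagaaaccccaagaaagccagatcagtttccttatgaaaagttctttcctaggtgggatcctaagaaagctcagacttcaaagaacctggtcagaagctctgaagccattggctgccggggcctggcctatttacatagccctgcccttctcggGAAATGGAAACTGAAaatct
Ifit1: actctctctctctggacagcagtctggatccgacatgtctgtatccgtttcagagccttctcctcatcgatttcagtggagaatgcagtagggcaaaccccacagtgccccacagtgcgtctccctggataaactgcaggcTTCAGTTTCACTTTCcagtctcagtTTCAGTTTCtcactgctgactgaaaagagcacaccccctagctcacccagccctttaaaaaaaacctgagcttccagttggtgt

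Some neutrophil transcripts were higher in HFD over all members, and by less or not at all in the cells with the full set of rule genes. S100a8 and S100a9, the subunits of calprotectin, stood at 595 and 1043 CPM (log2 ratio 0.81, 0.76 to 0.86) and at 857 and 1288 CPM (0.59, 0.55 to 0.63). Retnlg, a resistin-like protein of mature neutrophils, stood at 196 and 356 CPM (0.86, 0.78 to 0.95), and the antimicrobial Wfdc21 at 50.3 and 78.8 CPM (0.65). These 4 of 17 genes of the neutrophil-like list were called higher. Lyz1 was called lower with 55 and 18 UMIs (−1.78, −2.64 to −0.99), and the median was 0.30. The granule genes Ngp and Camp differed less, at 308 and 350 CPM and at 91.1 and 112 CPM in ND and HFD members. Among members with all 5 rule genes S100a8 stood at 0.29, S100a9 at 0.09 and Retnlg at −0.44 (−0.55 to −0.33), no gene of the list was called higher, and the median was 0.07, although 18.4% of these ND cells and 29.9% of the HFD ones held at least 3 neutrophil markers. S100a8 was found in 25.1% of ND and 41.4% of HFD members, in 27.6% and 45.2% of those with all 5 rule genes, in 16.1% and 26.1% of B cells and in 20.3% and 34.7% of patrolling monocytes. Its level was 104 and 217 CPM in B cells and 2707 and 3894 CPM in patrolling monocytes. In B cells the log2 ratio of S100a8 was 1.06 and the list median 0.74. With Scrublet doublets removed the list median in members was 0.60 and 9 of 17 genes were called higher. The part of free neutrophil RNA in the members' value was not tested.

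The dendritic cell-like genes pointed the other way. Cd209a stood at 62.5 CPM in ND and 32.9 CPM in HFD members (555 and 329 UMIs, log2 ratio −0.93, −1.13 to −0.73), and at −1.35 (−1.62 to −1.09) among members with all 5 rule genes. The median of 19 genes tested was −0.21, with 3 above 0, 1 called lower (Cd209a) and 1 higher (Mgl2, a lectin, with 20 and 44 UMIs, at −1.08 after thinning). Among members with all 5 rule genes the median was −0.31 and 4 of 18 were called lower, none higher. Slamf7, a receptor of the SLAM family, stood at −0.55 (−0.90 to −0.21). MHC class II presentation genes had a median of −0.21 and none of 14 was called, with 4 above 0, and H2-Aa and H2-Ab1 were limited by the rule itself. In B cells, where these genes are active, the MHC class II median was −0.0026.

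Other genes of monocyte identity differed little. The 33 classical monocyte genes had a median of 0.10, and 2 were called higher. Vcan stood at 48.3 and 83.7 CPM (0.79, 0.62 to 0.96), and at 0.55 (0.38 to 0.73) in cells with all 5 rule genes. Fcgr1, the high-affinity receptor for IgG, had 100 and 205 UMIs (0.86, 0.51 to 1.22). S100a4 stood at 455 and 642 CPM (0.50, 0.44 to 0.55), Chil3, a chitinase-like secreted protein, at 504 and 710 CPM (0.49, 0.44 to 0.55), and neither passed 1.5-fold. Csf1r (386 and 403 CPM), Irf8 (1031 and 999 CPM) and Klf4 (410 and 429 CPM) were alike within 0.07 log2 units. In members with all 5 rule genes the list median was −0.02, and 0.54 in B cells. Of 27 monocyte transcription factors tested 1 was called: Cebpe, a granulocyte factor, with 33 and 66 UMIs (0.83, 0.20 to 1.48).

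Receptors of pattern recognition were scarce, with a list sum of 1006 CPM in ND and 1101 CPM in HFD. Of 24 tested, 3 were called higher: Tlr4, the receptor for lipopolysaccharide, with 31 and 63 UMIs (0.85, 0.21 to 1.52), Clec4d with 52 and 108 UMIs (0.88, 0.39 to 1.39) and Fpr1, the receptor for formyl peptides, with 41 and 71 UMIs (0.62, 0.05 to 1.21). Tlr1 and the mannose receptor Mrc1 (36 and 18 UMIs, −1.17, −2.08 to −0.32) were called lower. The median was 0.22 over all members and 0.01 in those with all 5 rule genes, where Fpr1 stood at −0.46 (−1.19 to 0.27). Of 17 Fc and complement receptors 4 were called higher, Fcgr1 together with Fcgr4, C5ar1 and C5ar2, and the median was 0.10. In members with all 5 rule genes 1 was called higher and 1 lower, with a median of −0.06, and in B cells the median was 0.73. C5ar1, the receptor for the anaphylatoxin C5a, had 93 and 164 UMIs (0.65, 0.27 to 1.03), and 0.39 without cells of other classes.

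Migration and growth factor receptors showed no common shift. The median was 0.05 over 28 chemokine receptor, adhesion and egress genes, with Cxcr2 called higher and S1pr1, a receptor for exit into blood, called lower at 64 and 43 UMIs (−0.75, −1.34 to −0.17). It was 0.05 as well over 26 growth factor receptors, of which Il1r2 was called higher. In members with all 5 rule genes none of the 28 chemokine receptor, adhesion and egress genes was called. Inflammasome and inflammatory mediator genes had a median of 0.07 and none of 27 was called. With all 5 rule genes 3 of 25 were called higher and 1 lower, and in members with neither a cycling nor a primary granule profile 4 higher and 1 lower. Over all genes, 215 of 10258 were called higher and 218 lower in the first cells. In the second cells it was 234 and 227 of 9367. Il1b, the precursor of interleukin 1 beta, had 24 and 37 UMIs in all, with a wide interval that included 0 (0.45, −0.33 to 1.26). Tnf had 99 and 144 UMIs (0.37, −0.01 to 0.75).

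**Figure D4:**
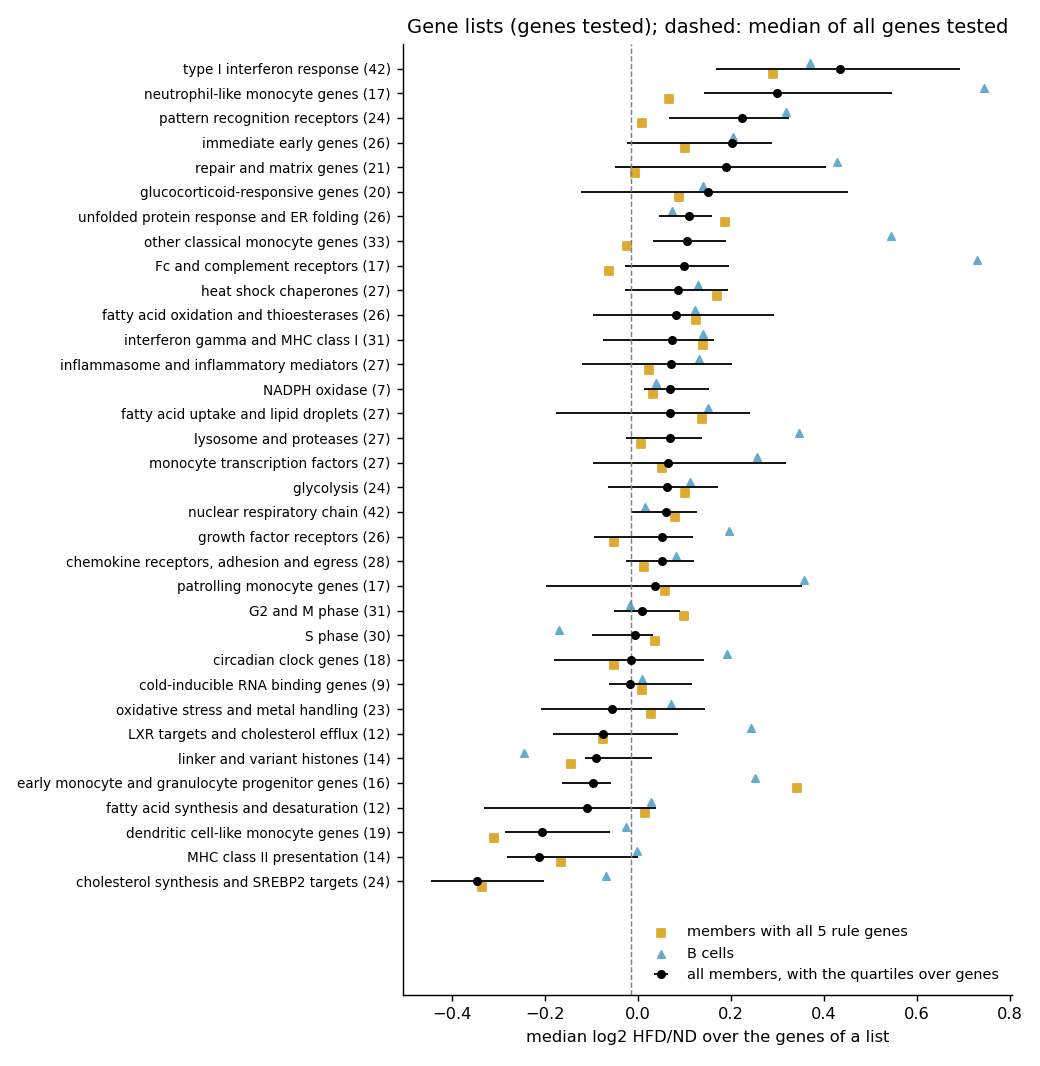
Median log2 HFD/ND of each gene list in members (black points, with the quartiles over its genes), in members with all 5 rule genes (yellow squares) and in B cells (blue triangles), with the number of genes tested in brackets. The type I interferon list stands highest, at 0.43, and the cholesterol synthesis list lowest, at −0.35; the B cell value of the neutrophil-like list lies above that of the members.

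Some genes of fatty acid oxidation were higher in HFD. Cpt1a, the gatekeeper of fatty acid entry into mitochondria, stood at 171 CPM in ND and 264 CPM in HFD (0.63, 0.54 to 0.72) and was found in 71.4% and 83.8% of members. Slc25a20, the carnitine carrier of the next step, had 184 and 353 UMIs (0.77, 0.51 to 1.03), and Acot1, a cytosolic thioesterase, 91 and 218 UMIs (1.09, 0.73 to 1.46). Slc22a5, which brings carnitine into the cell, was lower, with 93 and 53 UMIs (−0.98, −1.50 to −0.48). Of 26 genes in this list these 3 were called higher and 1 lower, with a median of 0.08. The median was 0.22 after thinning and 0.24 among members with neither a cycling nor a primary granule profile, with 4 of 25 genes called higher and none lower in each. Cpt1a and Acot1 were higher in B cells too (0.84 and 1.31).

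Plin2, the coat protein of lipid droplets, stood at 44.6 and 74.0 CPM (0.73, 0.55 to 0.91), and was found in 34.4% of ND and 48.3% of HFD members. Dgat2, which makes triglycerides, had 23 and 49 UMIs (0.92, 0.18 to 1.70). Lpl, the lipase that frees fatty acids from lipoproteins, was lower, at 115 and 70.4 CPM (−0.71, −0.85 to −0.57), and at −1.06 (−1.21 to −0.90) in members with all 5 rule genes. These were the 3 called genes of 27 on uptake and lipid droplets, whose median was 0.07, or 0.29 among members with neither a cycling nor a primary granule profile. In B cells Plin2 stood at 0.05 and Lpl at 1.39, and in patrolling monocytes at 0.41 and −1.29.

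Cholesterol synthesis was the list with the lowest median, −0.35, and 22 of its 24 genes tested stood below 0. Sqle, the squalene epoxidase, had 187 and 130 UMIs (−0.70, −1.03 to −0.37). It was 1 of 2 genes called lower, and none was called higher. Fdft1, the squalene synthase, stood at −0.56 and Hmgcs1, which acts early in the pathway, at −0.35. The median was −0.33 among members with all 5 rule genes, where 5 of 22 genes were called lower, −0.34 in patrolling monocytes, −0.28 in other kept cells and −0.07 in B cells. Among members with neither a cycling nor a primary granule profile it was −0.10, with Sqle at 0.37 (−0.60 to 1.38).

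Neighbouring lipid lists were closer to 0. Of 12 genes of fatty acid synthesis and desaturation none was called and the median was −0.11, with Scd2, a desaturase, at 95 and 64.9 CPM (−0.55, −0.70 to −0.40) and Fads1 at −0.52. LXR targets and cholesterol efflux genes had a median of −0.08 with none of 12 called, Abcg1 at −0.42 and Apoe at −0.32. Glycolysis genes had a median of 0.06, with 1 of 24 called higher (Pfkl, 0.72) and 1 lower (Pfkm, −0.62), which encode the liver and muscle forms of phosphofructokinase. None of 42 nuclear genes of the respiratory chain was called, and their median was 0.06.

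Stress and early response genes differed in a few members. Jun, a subunit of the AP-1 factor that handling can also induce, stood at 303 and 472 CPM (0.64, 0.57 to 0.71), and Ier3 had 85 and 152 UMIs (0.67). They were the 2 called of 26 immediate early genes, with a median of 0.20. Jund stood at 0.46 and Dusp1 at 0.49. Ddit4, a glucocorticoid- and stress-induced inhibitor of mTORC1, had 44 and 92 UMIs (0.89, 0.36 to 1.44), and Syvn1, a ubiquitin ligase of the endoplasmic reticulum, 252 and 434 UMIs (0.61). Gpx4, which repairs oxidised lipids, stood at 73.5 and 105 CPM (0.51, 0.37 to 0.65). H1f0, a linker histone, was lower, at 161 and 101 CPM (−0.68, −0.79 to −0.56), as it was in B cells (−0.77) and patrolling monocytes (−0.88).

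Among the genes with at least 200 UMIs and the highest ratios, Shtn1 followed the heat shock pair, with 110 and 334 UMIs (1.43, 1.12 to 1.75), and it was in 10.1% of ND and 23.7% of HFD members. Pla2g7, a secreted phospholipase that hydrolyses platelet-activating factor, had 105 and 276 UMIs (1.22, 0.89 to 1.56). Nccrp1 had 61 and 145 UMIs (1.08, and −0.02 among members with neither a cycling nor a primary granule profile), Klhdc3 126 and 262 UMIs (0.88) and Hcfc2 65 and 139 UMIs (0.92). At the other end Hpgd, which inactivates prostaglandins, had 368 and 156 UMIs (−1.41, −1.69 to −1.14) and was found in 17.4% of ND and 9.0% of HFD members. Akr1e1 (168 and 101 UMIs), Gkap1 (156 and 97), Rnf150 (163 and 102), Pim3, a kinase that promotes survival (144 and 91), and Rtn1 (132 and 88) stood between −0.76 and −0.91. Hpgd was lower by more in members with all 5 rule genes (−1.69).

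Some calls rested on few cells or on cells with markers of other classes. Prg2, a granule protein of eosinophils, went from 1838 to 350 UMIs, a log2 ratio of −2.56 (−2.73 to −2.40), but 89.4% of the ND UMIs lay in 1 cell, and without cells of other classes it stood at 0.54. Prss34, a basophil protease, had 2851 and 6593 UMIs (1.04), of which 86 and 88 were left without cells of other classes (0.03). Fcer1a, the basophil receptor for IgE, had 153 and 325 UMIs, of which 3 and 2 were left without such cells. Cd79a, a B cell receptor subunit, and Ly6a, a stem cell antigen, were called lower at −1.10 and −1.07, yet stood at 2.17 and 2.83 without cells of other classes, from 2 and 9 and from 7 and 50 UMIs. Prg2, Prss34, Fcer1a and Cd79a are themselves among the markers that chose the cells left out, so part of their fall in UMIs is fixed by that choice. Shares of cells with a UMI of Prg2 (11.2% and 13.4%) stand beside those in B cells (11.3% and 11.5%), whose median depth was 2416 and 2371 UMIs against 8331 and 8368 in members.

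Compared with patrolling monocytes, several differences were not of one size. Hpgd stood at −1.41 in members and −0.54 in patrolling monocytes, Pla2g7 at 1.22 and 0.25, and Jun at 0.64 and 0.05. Cd209a, Lpl, Cirbp and H1f0 were lower in both, and Oas1a, Rtp4, Cpt1a and Shtn1 higher in both. The widest gaps among genes with at least 200 UMIs in both cell groups included the heat shock pair, with Hspa1a 2.04 log2 units higher in members than in patrolling monocytes, and, on the other side, Mpo (−0.17 against 1.5), Cd34 (−0.21 against 0.93) and Myb (−0.14 against 1.19), which are genes of early cells. Patrolling monocytes were chosen without the Elane limit set on members. Elane stood at 166 CPM in ND and 435 CPM in HFD patrolling monocytes, against 38.7 and 50.3 CPM in members. Mpo had a UMI in 8.78% and 11.4% of patrolling monocytes. The part of the unlike limits in these gaps was not tested. With 1 library per diet the differences between cell groups were not tested either.

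**Figure D5:**
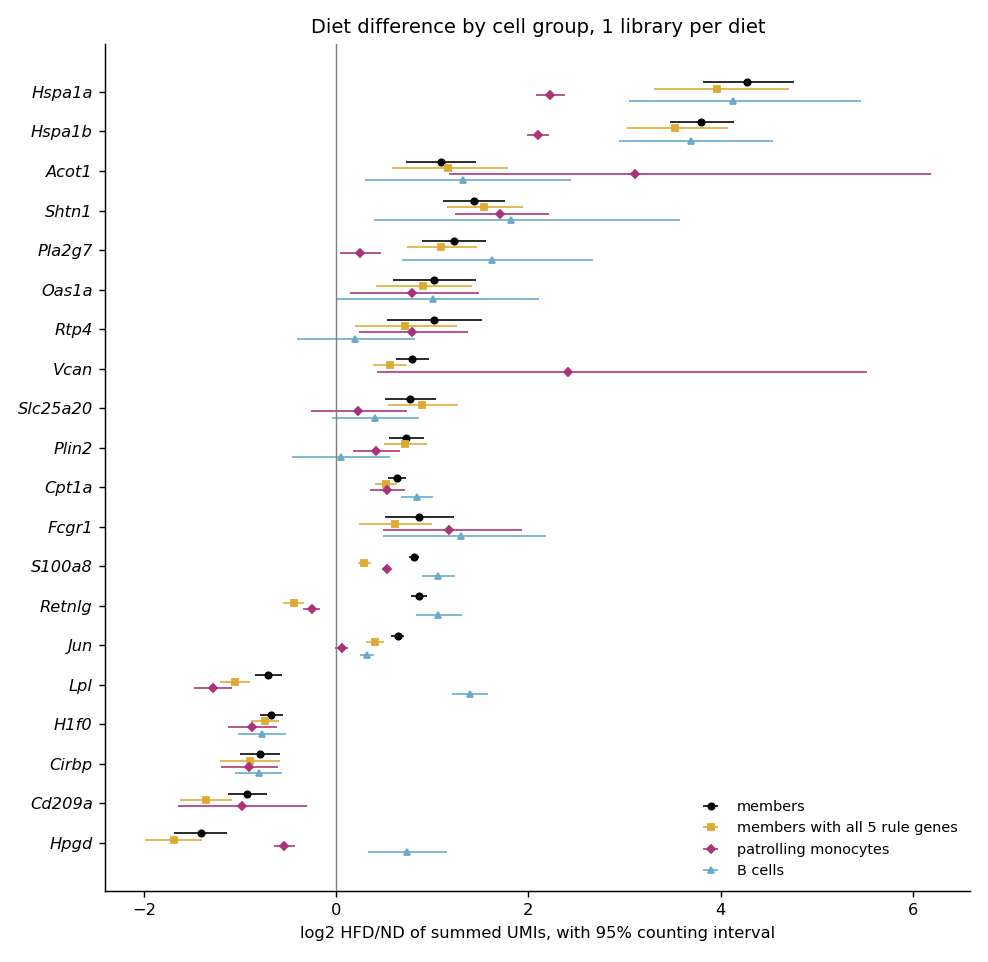
Log2 HFD/ND of summed UMIs with 95% counting intervals (horizontal axis) for 20 genes, in members (black), members with all 5 rule genes (yellow), patrolling monocytes (purple) and B cells (blue); groups with too few UMIs have no point. S100a8 and Retnlg lie far lower in members with all 5 rule genes than in all members, while Cirbp and H1f0 lie left of 0 in all 4 groups.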

How the data were processed

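Single-cell RNA of mouse bone marrow was measured in 2 libraries, 1 per diet. Values are deposited counts, that is UMIs after RSEC error correction, from version 1.9.1 of the BD WTA Rhapsody Analysis Pipeline with a custom reference, per the file headers. Genome build, annotation and aligner: not given in the sources used here. All values were whole numbers. Antibody tags were taken as deposited counts.

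Kept cells had 200 genes or more and no more than 25% mitochondrial UMIs, the rule was applied to the raw counts, and no doublets were removed. Members were not clustered. Shares carry Clopper-Pearson 95% intervals. UMIs summed over members were scaled to CPM, and a floor of 3 counts stands for 0. Intervals cover counting error only and do not reflect that UMIs cluster in cells, so they may be too narrow. PCR duplicates were collapsed by UMI. No count model was fitted and no p-value is given, since each diet has 1 library. The ratios and intervals were tested on simulated sums without clustering of UMIs in cells, so that test cannot show how they hold under such clustering. Tools were Python 3.11.15, numpy 2.4.6, scipy 1.17.1, pandas 2.3.3, scanpy 1.11.5 (Scrublet, expected rate 5%) and matplotlib 3.10.9. Promoter sequences are RefSeq windows of GRCm38.p6, joined by symbol.

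The members, 34 gene lists and 13 marker lists were chosen with earlier results of these data known. Genes named were the 12 highest and 12 lowest ratios among called genes with at least 200 UMIs, leaving out genes of mitochondria, ribosomes, haemoglobin, immunoglobulins and T cell receptors, numbered gene models and genes under 10% of their level in other kept cells. Up to 4 genes per list with the largest ratios (at least 50 UMIs), the rule genes, the 10 genes highest over other cells and the 5 widest gaps to patrolling monocytes in each direction were added, with list markers for levels. Other names were chosen after their values were seen, and some genes that the rule names are not reported here. Alternatives changed the cell filter, doublet removal, the number of rule genes, depth, scaling, cell make-up, the UMI minimum and the fold.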

Additional observations from a re-analysis of the deposited data

Results flagged for a closer look

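3 genes with at least 200 UMIs in both cell groups were called in opposite directions in classical and in patrolling monocytes; the difference itself was not tested. Igha, an immunoglobulin heavy chain, had a log2 HFD/ND of −4.27 in classical monocytes and 4.67 in patrolling monocytes, and 98.0% of the ND classical monocyte UMIs lay in 1 cell. Hba-a1, an alpha globin, stood at −0.90 and 1.56, with 70.6% of the ND UMIs of the classical monocytes in 1 cell. Prss34, the basophil protease, stood at 1.04 and −0.61, with 39.2% in 1 cell. Without cells of other classes the classical monocytes held 43 and 73 UMIs of Igha, 24 and 30 of Hba-a1, and 86 and 88 of Prss34 in ND and HFD. Hba-a1 and Prss34 are among the markers that chose the cells left out, so part of their fall is fixed by that choice.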

How the results depend on the processing

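Over shares, counts of calls and list medians, 497 of the values under the alternatives stayed within the counting interval or the spread between genes, or within 1.5 times the number of calls, and 42 did not. Single named genes were less steady: 787 of their values stayed the same, 184 moved and 22 reversed in sign. The cause of each was not tested. Calls numbered 478 higher and 601 lower with a mean over cells (by fold alone), 102 and 115 with at least 100 UMIs, 70 and 100 at 2-fold, and 158 lower after thinning to 2000 UMIs.

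With 4 of 5 rule genes the medians were 0.022 for other classical monocyte genes, 0.018 for progenitor genes, 0.11 for neutrophil-like genes, 0.063 for pattern recognition receptors and 0.026 for S phase, and Prg2 stood at 0.53 and Ly6a at 0.29. With 2 of 5, progenitor genes were at −0.19, Prss34 at −0.037, Fcer1a at −0.14, Prg2 at 0.14 and Cd79a at 0.22. Without Scrublet doublets, neutrophil-like genes were at 0.60, Prss34 at −0.42 and Fcer1a at −0.52. After thinning, medians were 0.039 for other classical monocyte, 0.089 for neutrophil-like, 0.19 for type I interferon and 0.22 for fatty acid oxidation genes, with Prg2 at 0.68, Cd79a at 0.21, Ly6a at 0.10 and Mgl2 at −1.08.

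Among members with neither a cycling nor a primary granule profile, medians were 0.023 for other classical monocyte, 0.35 for progenitor, 0.10 for neutrophil-like, 0.24 for fatty acid oxidation, 0.29 for uptake and droplet, −0.10 for cholesterol synthesis, 0.21 for clock, −0.14 for S phase, 0.30 for G2 and M phase and 0.082 for histone genes, with Nccrp1 at −0.019, Retnlg at −0.26, Fpr1 at −0.45 and Sqle at 0.37.

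2 alternatives were chosen after seeing the data. With all 5 rule genes the ratio of primary granule shares was 1.44, and medians were −0.023 for other classical monocyte, 0.34 for progenitor, 0.068 for neutrophil-like, −0.31 for dendritic cell-like, 0.0088 for pattern recognition, −0.063 for Fc receptor, 0.14 for interferon gamma, 0.19 for unfolded protein response, 0.038 for S phase and 0.10 for G2 and M phase genes, with Retnlg at −0.44, Prg2 at 0.078 and Fpr1 at −0.46. Without cells of other classes they were 0.023 for other classical monocyte, 0.041 for progenitor and 0.030 for S phase genes, with Prg2 at 0.54, Cd79a at 2.17 and Ly6a at 2.83.

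The ratio of member shares lay between 0.94 and 1.11 under these alternatives. Other scalings moved all log2 ratios by at most 0.014. No paired analysis was possible because each diet has 1 library, so leaving out a replicate was not possible either.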
